A study of Mus musculus with 4 samples.

Results

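Rhox5, Rhox6 and Rhox9 are 3 of the 31 Rhox homeobox genes in a table of raw gene counts from mouse embryonic stem cells (ESCs), which lists 24116 genes in all. They were picked by name from earlier results of the same comparison, in which their counts differed between the genotypes. Their own difference between the genotypes is therefore given as a description and without a test. The tests given are those of other genes, whose lists were also drawn up with results of this comparison known, so that their calls are not independent of it.

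The libraries came from poly(A) RNA of WT ESCs (line N12) and of G3 Terc-/- ESCs (line F35), with 2 libraries of each genotype. Terc encodes the RNA template of telomerase, and G3 Terc-/- ESCs were derived from matings of second-generation knockout mice, so that their telomeres have shortened over generations. Both lines are C57BL/6 and were grown on feeder cells in medium with 20% serum (FBS) and 1000 U/mL of leukemia inhibitory factor. Each genotype was 1 ESC line, so that genotype and line cannot be told apart. The titles of the WT libraries also carry the prefix G3, which the labels do not explain, and their genotype is given as wild type. The study's methods call the 2 libraries of a line biological replicates without saying whether they were separate cultures, and the p-values measure the spread between these libraries only.

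Rhox genes (reproductive homeobox on the X) encode homeodomain proteins, which bind DNA, and lie side by side on the X chromosome. They are known for expression in placenta, testis, ovary and the germ line. Rhox5, first named Pem, is known from extraembryonic tissue, ESCs and Sertoli cells, and Rhox6 and Rhox9, first named Psx1 and Psx2, from trophoblast and the embryonic gonad. In the embryo proper the cluster is known to be silenced with DNA methylation.

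The cluster runs from the start of Rhox1 at position 37213804 of chromosome X (GRCm38) to Rhox13 and covers 916 kb. Rhox5 (gene identifier 18617) is annotated by RefSeq from 37754608 to 37808878 on the plus strand. Rhox6 (gene identifier 19202) follows 18.2 kb further on, from 37827055 to 37829857, also on the plus strand. Rhox9 (gene identifier 104384) lies another 69.2 kb away, from 37899097 to 37901770, on the minus strand. Rhox9 is thus the only member of the 3 that is read in the opposite direction. In GENCODE M21 (GRCm38) the fully spliced transcript of each has 4 exons, 754 bases long in Rhox5, 1010 in Rhox6 and 882 in Rhox9.

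The third exon is coding and 46 bases long in each of the 3 genes, and its sequence, from the GENCODE transcripts, shows how the members are related. Capitals mark the positions at which at least 1 of the 3 genes has another base.
Rhox5: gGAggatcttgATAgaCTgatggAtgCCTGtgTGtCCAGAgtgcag
Rhox6: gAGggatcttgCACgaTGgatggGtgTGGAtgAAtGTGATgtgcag
Rhox9: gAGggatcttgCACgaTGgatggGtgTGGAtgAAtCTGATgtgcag
These exons lie at 37806074 to 37806119 (Rhox5), 37828415 to 37828460 (Rhox6) and 37900280 to 37900325 (Rhox9) of chromosome X. Rhox6 and Rhox9 differed at 1 of the 46 positions, Rhox5 and Rhox6 at 19 and Rhox5 and Rhox9 at 18. Over the whole spliced transcripts, Rhox6 and Rhox9 were identical at 92.0% of 882 aligned bases, against 68.0% for Rhox5 with Rhox6 and 70.8% for Rhox5 with Rhox9.

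The likeness of Rhox6 and Rhox9 bears on how far their counts are separate measurements. Of all stretches of 50 bases in the Rhox6 transcript, 16.5% also occurred in transcripts of Rhox9, and 159 of the 833 in the 4-exon Rhox9 transcript occurred in Rhox6. At 150 bases, the length of 1 read of a pair, 1.39% of the stretches of Rhox6 were shared with Rhox9. No stretch of 50 bases of Rhox5 was found in the transcripts of another gene, so its counts carry no such overlap among annotated transcripts. How reads that match both Rhox6 and Rhox9 were counted is not given in the sources used here.

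The RefSeq start of Rhox5 and the start of its 4-exon GENCODE transcript lie 50.2 kb apart, and starts of other GENCODE transcripts were not compared. Which start was used in these cells cannot be read from counts per gene. The 250 bases before the RefSeq start (GRCm38.p6, plus strand, chrX:37754358-37754607) are shown because DNA methylation acts on CG dinucleotides, which are in capitals.
Rhox5 promoter: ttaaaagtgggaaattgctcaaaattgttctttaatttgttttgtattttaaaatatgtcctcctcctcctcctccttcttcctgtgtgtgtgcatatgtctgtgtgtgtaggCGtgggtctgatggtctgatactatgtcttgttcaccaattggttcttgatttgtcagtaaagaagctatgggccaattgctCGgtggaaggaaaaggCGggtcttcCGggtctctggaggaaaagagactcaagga
It holds 4 CG dinucleotides, and CG reads the same on both strands. Of 32851 RefSeq promoter windows of the same length, 92.1% hold at least 1 CG and 44.4% hold 4 or fewer, with a median of 6. Methylation was not measured in these libraries. Rhox6 and Rhox9 have no entry in the promoter table.

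Gene counts per library summed to between 18047995 and 22520017. For Terc, the deleted gene, WT replicates 1 and 2 had 7 and 2 counts. Either G3 Terc-/- library had 0, and a count of 0 allows up to 3. Of 14896 genes tested with edgeR's quasi-likelihood test, 21.7% passed a Benjamini-Hochberg adjusted p-value of 0.05 as higher in G3 Terc-/- ESCs and 21.8% as lower. These shares are the background for each count of called genes given here. The pluripotency genes Pou5f1, Sox2, Nanog and Zfp42 belong to a list of 15 ESC markers, whose summed level, as counts scaled to library size (CPM), was 7393 and 7516 CPM in WT and 9107 and 9495 CPM in G3 Terc-/- libraries. The summed level of 17 feeder fibroblast markers was 325.5 and 206 CPM in WT and 362 and 242 CPM in G3 Terc-/- libraries, and 0 of the 17 were at 0 in all libraries.

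Rhox5 had 1900 and 1925 raw counts in WT replicates 1 and 2 and 143 and 106 in G3 Terc-/- replicates 1 and 2. Scaled to library size with TMM factors, these came to 87.0 and 86.8 CPM in WT, against 6.45 and 5.81 CPM in G3 Terc-/- libraries. The WT libraries nearly coincided, the G3 Terc-/- libraries lay far below them, and the genotypes did not overlap. In this bulk RNA, fewer cells with the transcript and less transcript per cell cannot be told apart.

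Rhox6 had 242 and 229 raw counts in the WT libraries, against 30 and 38 in the G3 Terc-/- libraries. Its level was 11.1 and 10.3 CPM in WT and 1.35 and 2.08 CPM in G3 Terc-/- libraries. The genotypes again did not overlap, and G3 Terc-/- replicate 2 was the higher of its pair.

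Rhox9 had 134 and 174 raw counts in the WT libraries, against 36 and 35 in the G3 Terc-/- libraries. Its level was 6.14 and 7.85 CPM in WT and 1.62 and 1.92 CPM in G3 Terc-/- libraries. Of the 3 genes it had the widest WT spread relative to its mean, and its genotypes did not overlap either.

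**Figure D1:**
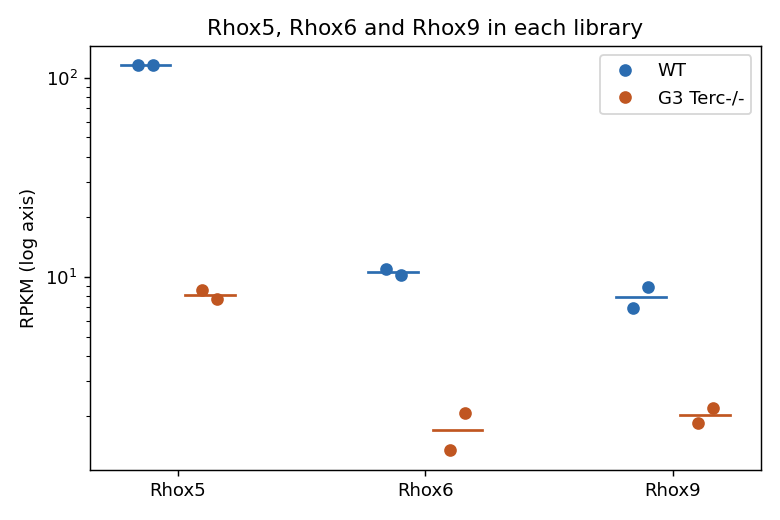
Level of each gene per library in RPKM (log axis), with 1 point per library and a bar at the mean of the 2 libraries of a genotype, WT in blue and G3 Terc-/- in orange. The blue points lie above the orange points for each gene, with the widest gap for Rhox5, from a mean of 115 to 8.13 RPKM.

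To compare the genes with each other, CPM were divided by the length of the 4-exon transcript (RPKM). In WT ESCs, Rhox5 stood at 115 ± 0.176 RPKM (SD, n = 2), Rhox6 at 10.6 ± 0.528 and Rhox9 at 7.93 ± 1.37. Rhox5 was thus far above the others in WT ESCs, and the Rhox6 libraries lay above the Rhox9 libraries without overlap. In G3 Terc-/- ESCs, Rhox5 stood at 8.13 ± 0.599 RPKM (SD, n = 2), Rhox6 at 1.70 ± 0.511 and Rhox9 at 2.01 ± 0.236. Rhox5 remained the highest of the 3, whereas the libraries of Rhox6 and Rhox9 overlapped, so that these neighbours in the order did not differ beyond their spread. A second annotated Rhox9 transcript retains introns and is longer, and counting reads over its length would give lower RPKM values for Rhox9.

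The sizes of the differences were unequal. The log2 fold change, G3 Terc-/- over WT, of Rhox5 was -3.82 (standard error 0.09), a level 14.1-fold lower. For Rhox6 it was -2.66 (standard error 0.19), 6.32-fold lower. For Rhox9 it was -1.99 (standard error 0.21), 3.97-fold lower. The order of the differences followed the order of the WT levels, with the most abundant gene lowest relative to WT. Ranked from the most negative log2 fold change among the 14896 genes tested, Rhox5 was at place 6, Rhox6 at 27 and Rhox9 at 61. The members were chosen from this contrast, so their lack of overlap between genotypes is a description only. The share of all genes that were lower without overlap was not counted. The 21.8% of genes called lower is another measure, based on adjusted p-values.

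The make-up of the 3 genes' counts shifted accordingly. Rhox5 held 83.5% (95% Wilson interval 81.9 to 84.9) and 82.7% (81.1 to 84.2) of the counts of the 3 genes in the WT libraries. In the G3 Terc-/- libraries it held 68.4% (61.8 to 74.3) and 59.2% (51.9 to 66.1). The intervals cover counting error only, and the shift is a description of the counts from which the genes were chosen. Rhox9 held 5.89% and 7.47% in WT ESCs, against 17.2% and 19.6% in G3 Terc-/- ESCs. The share of Rhox6 was 10.6% and 9.84% in WT ESCs, against 14.4% and 21.2% in G3 Terc-/- ESCs.

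The feeder markers and the members varied differently within genotypes. The summed CPM of the feeder markers in replicate 1 was 1.58 times that in replicate 2 in WT and 1.498 times in G3 Terc-/- ESCs. The same ratio was 1.00 and 1.11 for Rhox5, 1.07 and 0.650 for Rhox6 and 0.782 and 0.846 for Rhox9. In G3 Terc-/- ESCs the ratios rest on 30 and 38 raw counts for Rhox6 and 36 and 35 for Rhox9. Counts this low are too few to give a direction between replicates. Of the 15 feeder markers tested, 5 were higher and 0 lower in G3 Terc-/- ESCs by adjusted p-value from edgeR. The 5 became 0 higher and 1 lower without G3 Terc-/- replicate 1, 1 higher and 1 lower without WT replicate 2, and 12 higher without WT replicate 1 or G3 Terc-/- replicate 2, and DESeq2 called 2 higher. The part of feeder RNA in the Rhox values was not tested.

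The other Rhox genes in the count table were near or at the limit of detection. Of these 28 genes, 16 had 0 counts in all 4 libraries, which allows up to 3 counts in each, and a further 9 had at most 9 counts over the 4 libraries together (Rhox2a, Rhox2e, Rhox2g, Rhox4a, Rhox4b, Rhox4d, Rhox4e, Rhox4g and Rhox7a). All 28 together held 44 and 40 counts in WT replicates 1 and 2, where Rhox5, Rhox6 and Rhox9 together held 2276 and 2328. In G3 Terc-/- replicates 1 and 2, the 28 genes held 25 and 38 counts and the 3 genes 209 and 179. The 3 genes thus held most counts of the 31 Rhox genes in the count table in every library. RefSeq lists 42 Rhox genes, and those absent from the count table could not be compared.

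Rhox1, at the proximal end of the cluster, showed 32 and 18 counts in the WT libraries, against 9 and 18 in G3 Terc-/- ESCs, so that the genotypes overlapped in raw counts and in CPM. It was the only other Rhox gene that passed the filter on low counts. Its log2 fold change of -0.75, with a standard error of 0.42, did not pass the threshold in edgeR (adjusted p = 0.154). Without G3 Terc-/- replicate 2 it came to -1.47 and passed it in edgeR (adjusted p = 0.0393, the lowest of a range up to 0.781 over the alternatives).

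At the distal end, Rhox13, which is known from male germ cells, showed 4 and 2 counts in the WT libraries, against 7 and 11 in G3 Terc-/- ESCs. For Rhox10, known from spermatogonia, the WT libraries held 0 and 5 counts and the G3 Terc-/- libraries 6 and 5. Both were too low to be tested. Their counts were not lower in G3 Terc-/- libraries, in contrast to those of the 3 members between them and Rhox1, but this difference in direction was not tested. The depth does not allow a statement on the remaining genes.

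**Figure D2:**
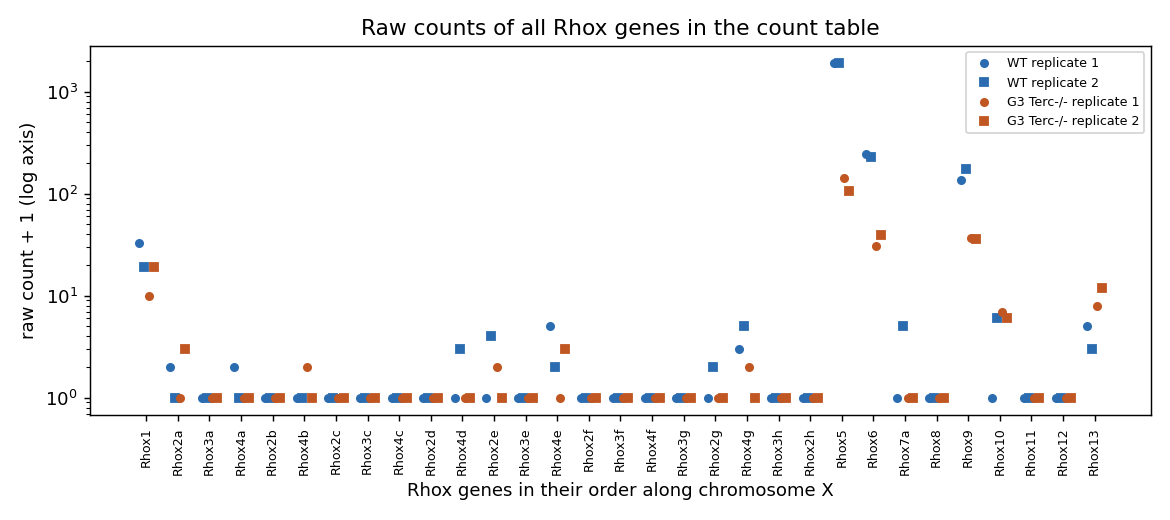
Raw counts plus 1 (log axis) of the 31 Rhox genes in their order along chromosome X, with blue for WT, orange for G3 Terc-/- and a circle or square for replicate 1 or 2. Rhox5, Rhox6 and Rhox9 stand out from a cluster in which 16 genes have 0 counts in every library.

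The tandem copies Rhox2, Rhox3 and Rhox4 resemble each other so closely that their counts are uncertain. In the 21 copies of these 3 subfamilies in the table, between 44.7% and 100% of the stretches of 50 bases in a gene's transcripts also occurred in another Rhox gene, with a median of 72.5%. Reads from such stretches cannot be assigned to 1 copy, and a count of 0 for a copy is not evidence that it was silent. For Rhox7a the corresponding share was 55.6%, so that its count is uncertain too, and for Rhox5 it was 0%.

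Genes that flank the cluster were called about as often as genes elsewhere. Among the 10 tested genes nearest to the cluster on each side, 4 of 20 were higher and 4 of 20 were lower by adjusted p-value, 20.0% in either direction, beside 21.7% and 21.8% of all genes. Their median log2 fold change was -0.04. The median was -0.01 over the 525 tested genes of chromosome X outside the cluster and 0.01 over all genes tested. Without G3 Terc-/- replicate 2, 7 of the 20 were lower. There was no tested gene without a Rhox symbol inside the cluster.

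Of the 20 flanking genes, 1, Gm9, passed both the adjusted p-value and a fold change of 2. At any p-value, 1 of the 20 fell at least 2-fold and 0 rose as much. Of the 525 tested genes of chromosome X outside the cluster, 39 fell and 26 rose at least 2-fold. Of all 14896 genes tested, 474 fell and 716 rose as much. Gm9, whose annotated end lies 2.8 kb before the start of Rhox1, showed 19 and 16 counts in the WT libraries, against 4 and 2 in G3 Terc-/- ESCs. In edgeR it fell by 2.38 ± 0.60 (log2 fold change and standard error, adjusted p = 0.00129). On the other side, the nearest tested gene was Zbtb33, which encodes the methyl-CpG binding protein Kaiso, with a log2 fold change of -0.00437 ± 0.10 (standard error) in edgeR (adjusted p = 0.976). The other calls among the 20 were small, from -0.42 for the ubiquitin ligase gene Cul4b to 0.83 for the glutamate receptor gene Gria3. The 20 genes start between positions 36874295 and 42149297. Gria3 starts at 41400819 and thus lies megabases beyond the cluster, whose last gene starts at 38120840.

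**Figure D3:**
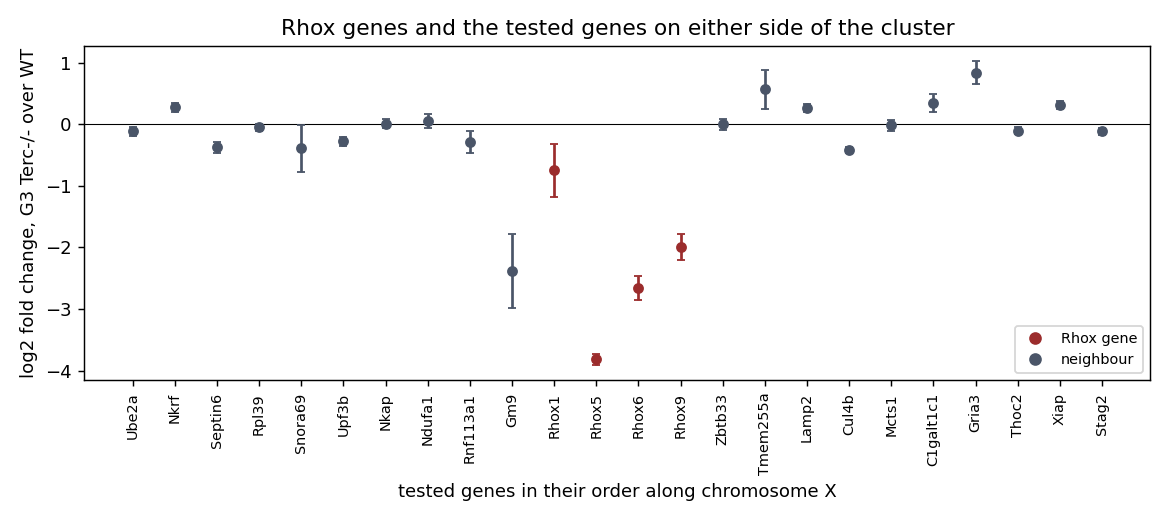
Log2 fold change, G3 Terc-/- over WT, with standard errors as bars, of the tested Rhox genes (red) and the 10 tested genes on each side of the cluster (grey) in their order along chromosome X. Rhox5, Rhox6, Rhox9 and Gm9 lie at or below -1.99, and the other flanking genes lie between -0.42 and 0.83.

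The genes whose pattern over the 4 libraries was most like that of each member were found by the distance between log2 CPM values centred on each gene's mean, among 12174 genes whose counts averaged 50 or more. With 2 libraries of each genotype, this measure mostly reflects the size of the difference between genotypes. Nearest to Rhox5 were Wnt7b, which encodes a Wnt ligand (distance 0.379), 2610528J11Rik (0.654) and Krt7, a keratin of simple epithelia (0.764). Wnt7b, for example, showed 429 and 496 counts in the WT libraries, against 40 and 33 in G3 Terc-/- ESCs. Nearest to Rhox6 were Calml4 (0.175), Eda2r (0.269) and Ildr1 (0.328), of which Eda2r, a receptor of the tumor necrosis factor receptor family, is itself on chromosome X. Nearest to Rhox9 were Fgfr2, a fibroblast growth factor receptor (0.140), Nrsn1 (0.161) and Halr1 (0.173). Halr1 lies between 45 and 80 Mb of chromosome 6, where 122 of 129 tested genes had a negative log2 fold change.

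Rhox5, Rhox6 and Rhox9 are known from trophoblast, and 26 trophoblast genes outside the cluster were looked at beside them. Of the 21 tested, 13 were lower and 1 was higher in G3 Terc-/- ESCs by adjusted p-value from edgeR, and 7 of the 13 fell by at least 2-fold. Of all 14896 genes tested, 474 fell and 716 rose at least 2-fold at any p-value. The median log2 fold change of the list was -0.64, against 0.01 over all genes. The keratin genes Krt7, Krt8 and Krt18 fell by 3.21, 1.26 and 1.81 on the log2 scale. Krt7, for example, went from 284 and 271 counts to 27 and 28 (adjusted p = 3.84e-18 from edgeR). Peg10, a retrotransposon-derived gene needed for the placenta, fell by 1.15, and it lies in the first 25 Mb of chromosome 6, where 45 of 53 tested genes had a negative log2 fold change. The exception was Eomes, a T-box factor of trophoblast and early mesendoderm, which rose by 1.63 and is named here after its values were seen. Cdx2, a factor that defines trophectoderm, showed 16 and 23 counts in the WT libraries, against 16 and 4 in G3 Terc-/- ESCs, with an adjusted p of 0.150 from edgeR. The list's single higher gene became 2 without WT replicate 1 and without G3 Terc-/- replicate 1.

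Because Rhox genes are known to be methylated, genes of DNA methylation were looked at as well. Of 17 tested, G3 Terc-/- ESCs had 7 lower and 4 higher, and the median log2 fold change was -0.00437. The 7 lower became 4 without WT replicate 1. Dnmt3b, a de novo methyltransferase, showed 11230 and 11596 counts in the WT libraries, against 5129 and 4405 in G3 Terc-/- ESCs, and in edgeR fell by 1.13 ± 0.05 (log2 fold change and standard error, adjusted p = 1.59e-22). Dnmt3a, the other de novo methyltransferase, fell by 0.50, and its cofactor gene Dnmt3l rose by 0.31. Tet2, which encodes an enzyme that oxidizes methylcytosine, rose by 0.46 and the methyl-CpG binding gene Mbd1 by 0.58. The maintenance genes Dnmt1 and Uhrf1 had log2 fold changes of -0.07 and 0.02 and did not pass the threshold.

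Among genes of H3K9 methylation and linker histones, which are also known to act on Rhox genes, 5 of the 25 tested had a call for a higher and 8 for a lower level in G3 Terc-/- ESCs, with a median of -0.08. The 5 higher became 3 without WT replicate 1 or with DESeq2 and 2 without WT replicate 2. Ehmt2, which encodes the methyltransferase G9a, fell by 0.25 on the log2 scale and its partner Ehmt1 by 0.38, Setdb1 had -0.03 and an adjusted p of 0.711 from edgeR, and its corepressor gene Trim28 rose by 0.41. The heterochromatin protein genes Cbx1 and Cbx3 fell by 0.59 and 1.24, the remodeler gene Atrx fell by 0.72, and the linker histone gene H1f10 rose by 1.09. Cbx3 lies in the 45 to 80 Mb stretch of chromosome 6 given above, and H1f10 between 80 and 95 Mb, where 116 of 132 tested genes had a positive log2 fold change.

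Other germline genes that are known to be silenced with DNA methylation did not share the direction of the 3 Rhox genes as a list. Of 31 tested, 7 were higher and 8 were lower, with a median log2 fold change of -0.00954. The 8 lower became 5 without WT replicate 2. Dazl, an RNA-binding protein of germ cells, rose by 1.32 and Syce1, of the synaptonemal complex, by 1.21, whereas Tex19.1 fell by 0.59. Xlr3a, like the Rhox genes a multicopy gene of chromosome X, fell from 85 and 74 counts to 1 and 4 (adjusted p = 3.93e-12 in edgeR), and reads of its close copies may be split between them. Of the genes that repress germline genes through E2F6 and MGA, 3 of 10 were higher and 3 were lower, with a median of -0.08. L3mbtl2, Ring1 and Rnf2 rose by 0.33, 0.38 and 0.22, and Pcgf6 fell by 0.34. Without WT replicate 2, 1 of the 10 was lower and Ring1 lost its call, and without WT replicate 1 Rnf2 lost its call.

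**Figure D4:**
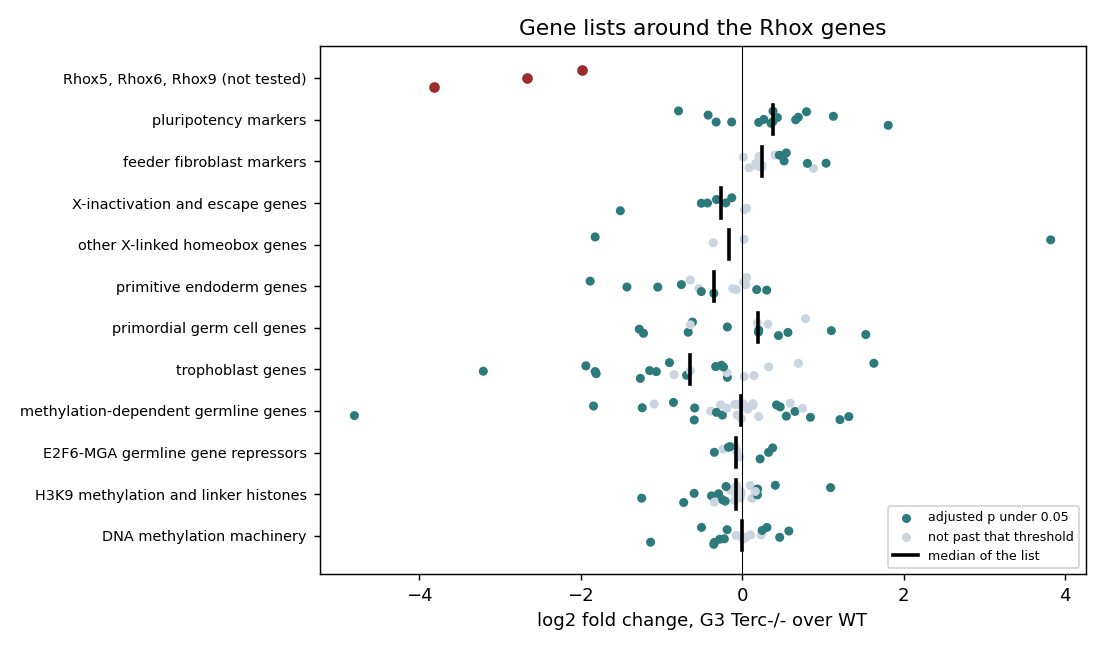
Log2 fold change, G3 Terc-/- over WT, of each tested gene of 11 lists (teal where the adjusted p-value was under 0.05, light grey otherwise, black bar at the median), with Rhox5, Rhox6 and Rhox9 in red above them. The trophoblast list has the lowest median, -0.64, and the 3 Rhox genes lie between -3.82 and -1.99.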

How the data were processed

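RNA-seq libraries of WT and G3 Terc-/- ESCs (2 each) were analysed. Per the labels, the authors trimmed reads with Trim Galore, aligned them to mm10 with STAR and counted them with featureCounts, and the deposited values are raw counts per NCBI gene identifier without normalization. Versions and the strand setting are not given in the sources used here. Without a known strand setting, overlapping genes cannot be told apart.

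Of 24116 identifiers, 24061 were matched to a symbol and position in RefSeq (GRCm38.p6). Fold changes came from edgeR 4.0.16 in R 4.3.3 (TMM, filterByExpr, quasi-likelihood test, no term but genotype, Benjamini-Hochberg adjustment over 14896 genes). Standard errors are the log2 fold change divided by the square root of F. RPKM are TMM-scaled CPM per kilobase of the 4-exon GENCODE M21 transcript, and transcripts were aligned with Biopython 1.88. Figures were drawn with matplotlib 3.10.9. In simulated counts of this comparison over 14729 genes, 95% of 100 genes changed 2-fold and 100% of 100 changed 4-fold were recovered. The changed genes were drawn from those averaging 50 counts or more, with the same dispersion for all genes. The recovery therefore does not cover genes with fewer counts or with more spread between libraries. It also does not cover a comparison with as many changed genes as were called here. With 2 libraries against 2, an exact two-sided permutation test of a single value cannot go below p = 0.333, so none was run. Counts of TE copies were not used, as they have no positions. The members, gene lists and tests were chosen with earlier results of these data known. Genes named were the members, Rhox genes with counts, Terc, flanking genes called and changed at least 2-fold, up to 4 called genes per list in order of p, 9 regulators of methylation, and the 3 genes most like each member. Other genes were named after their values were seen. Alternatives were DESeq2 1.42.0, its size factors in edgeR, no filter, a replicate block, the study's cutoffs for genes and each library left out in turn.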

Additional observations from a re-analysis of the deposited data

How the results depend on the processing

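The log2 fold changes of Rhox5, Rhox6 and Rhox9 stayed negative under DESeq2, its size factors, no filter, the replicate block and each library left out. The members were chosen for their difference in these same libraries, so these refits describe the values and are no independent support. With a library left out, the lone library of a genotype was assumed to vary like the other pair, and the values ran from -3.91 to -3.75 for Rhox5, from -2.98 to -2.36 for Rhox6 and from -2.16 to -1.80 for Rhox9. Over the same fits, the number of other Rhox genes called ran from 0 to 1 and of lower flanking genes from 4 to 7. Of all genes, 3238 were called higher and 3241 lower. DESeq2 called 2076 and 2290, and a fold change of 2 at an unadjusted p of 0.05 gave 704 and 466, since it adds a minimum size; the cause was not tested for DESeq2. With a replicate block for the numbers in the labels, 3551 and 3583 were called. The correlation between genotypes of the replicates' deviations was 0.0617 over the genes tested. It cannot decide whether smaller sets of genes share a replicate effect. The summed feeder markers were higher in replicate 1 of both genotypes, 1.58 and 1.498 times replicate 2. The CPM of Rhox9 were lower in replicate 1 of both, while those of Rhox6 went opposite ways. The counts of Rhox6 and Rhox9 in G3 Terc-/- libraries were too low to give a direction between replicates. The block changed no call of a named gene. Of 59 named genes other than the members, 47 kept direction and side of the threshold under the 8 alternatives run on them. Uhrf1 changed sign when libraries were left out, to -0.00868 without WT replicate 1 and -0.0217 without G3 Terc-/- replicate 1, within a range up to 0.05003. The depth limits the other Rhox genes, most of which had too few counts to be tested.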

Other observations

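Genes of other cell types in which Rhox genes are known were measured in the same libraries. Of 15 primitive endoderm genes tested, 6 were lower and 2 higher in G3 Terc-/- ESCs by adjusted p-value from edgeR, with a median log2 fold change of -0.35. Cubn, an endocytic receptor of visceral endoderm, fell by 1.88 on the log2 scale and the adaptor gene Dab2 by 1.05. The basement membrane collagens Col4a1 and Col4a2 fell by 0.35 and 0.51. The 2 higher genes were the laminin genes Lama1 and Lamc1, which rose by 0.30 and 0.18. Col4a2 lost its call with DESeq2. The 2 higher genes became 1 without WT replicate 1 or WT replicate 2. Of 15 primordial germ cell genes tested, 6 were higher and 5 lower, with a median of 0.20. Prdm14, a regulator of germ cell fate and naive pluripotency, rose by 1.10 and the receptor gene Kit by 0.57, while Dppa3 fell by 1.22 and Dmrt1 by 1.27.

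Of the 15 pluripotency markers, 11 were higher and 4 lower in G3 Terc-/- ESCs, with a median of 0.38. Tbx3 rose by 1.81, Nanog by 1.13 and Tfcp2l1 by 0.80, and Dppa5a fell by 0.79. Nanog and Dppa3 lie between 120 and 130 Mb of chromosome 6, where 91 of 101 tested genes had a positive log2 fold change, and Dppa3 was lower there. Of the feeder markers, Col3a1, Thy1, Pdgfrb and Fbn1 rose by 0.52, 0.55, 0.81 and 0.46. Each of these 4 lost its call without G3 Terc-/- replicate 1, Col3a1, Pdgfrb and Fbn1 also without WT replicate 2, and Col3a1 and Thy1 with DESeq2.

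Of the 4 X-linked homeobox genes outside the Rhox cluster, Cdx4 fell from 19 and 28 counts to 4 and 8, a log2 fold change of -1.82 (edgeR adjusted p = 0.00262), a call it lost with DESeq2 and without WT replicate 2 or G3 Terc-/- replicate 1. Esx1, an X-linked homeobox gene of the placenta, had a log2 fold change of 0.02 and an adjusted p of 0.915 from edgeR. Of 8 genes of X inactivation and escape from it, 6 were lower and 0 higher at an adjusted p-value under 0.05 from edgeR, with a median of -0.26, and without WT replicate 1 they were 3 lower, and without G3 Terc-/- replicate 2 1 was higher. Ftx fell by 1.51, Rlim by 0.51, Eif2s3x by 0.20 and Ddx3x by 0.13, and Ddx3x lost its call without WT replicate 1, WT replicate 2 or G3 Terc-/- replicate 1. Xist and Tsix, also among the lower genes, fell by 0.32 and 0.43, with adjusted p of 0.0467 and 0.0451 from edgeR, near the threshold. Xist overlapped between genotypes, with 17.0 and 11.7 CPM in WT and 12.4 and 10.5 CPM in G3 Terc-/- libraries. Of the known RHOX5 targets of Sertoli cells, Unc5c had 24 and 12 counts in the WT libraries, against 24 and 14 in G3 Terc-/- ESCs. At these low counts its log2 fold change was 0.19, with a standard error of 0.41 (adjusted p = 0.734 from edgeR). Ins2 had 0 counts in all 4 libraries.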
